A study of Mus musculus with 12 samples.

Results

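The mRNAs described here belong to IL-6 and IL-10 signalling. They are the ligands Il6 and Il10, the receptor chains Il6ra and Il10rb and the transcription factors Stat3 and Cebpb, 6 of the 248 inflammation-related genes tested. They were picked by symbol from the value table, and all 6 were found. The nanostring approach, which counts colour-coded reporter molecules hybridised to each mRNA without amplification, was applied to 6 samples of blood monocytes (MNCs) and 6 of Kupffer cells (KCs), which are macrophages resident in liver. All came from Balb/C mice, and the labels name no treatment, transgene or age. Each sample was a pool of cells sorted on magnetic beads against F4/80, a macrophage surface protein, from 5 mice by the labels and from 4 to 5 by the methods of the study. Livers, unlike blood, were digested with collagenases before the sort, so that cell type, tissue and digestion cannot be told apart.

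IL-6 binds its receptor chain Il6ra, which pairs with the signal transducer encoded by Il6st. The complex activates JAK kinases that phosphorylate Stat3, and in hepatocytes this switches on the acute phase response. IL-10 signals through Il10ra and Il10rb, again to Stat3, and is known for restraining the output of inflammatory cytokines by macrophages. Cebpb encodes C/EBP beta, a leucine zipper factor first described as a nuclear factor for IL-6, which binds the Il6 promoter and takes part in the acute phase response. Il6st and Il10ra were not analysed here.

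In Kupffer cells, Il6 and Cebpb were lower than in monocytes, by 3.96-fold and 2.80-fold. In both genes every monocyte sample exceeded every Kupffer cell sample, as in 15.7% of all genes tested. Set against macrophage and monocyte markers of the same sample, these differences depended on the marker. The log2 differences, Kupffer cells minus monocytes, then ran from -3.12 (against Cd163) to 0.17 (against C1qa) for Il6. For Cebpb they ran from -2.60 to 0.69 against the same 2 markers. Stat3 was 1.26-fold higher in Kupffer cells as deposited, a difference that depended on how samples were scaled. No difference was called for the receptor chains Il6ra and Il10rb. Il10 mRNA was above the background in only 3 of 6 monocyte samples, highest at 53.1 normalized counts in sample 6, and in 2 of 6 Kupffer cell samples. Thus 3 of the 6 members passed an adjusted p of 0.05 from limma, 1 higher and 2 lower in Kupffer cells. Of all 248 genes 56.5% passed, 35.1% higher and 21.4% lower, so the share of members called was near that of the panel. These shares include calls of genes listed at the background in most samples. As listed, 87 genes were called higher and 53 lower. With background values multiplied by the factor of the lane where that was higher, the counts were 90 and 45. The split between directions depended on scaling: 62.1% of all calls were higher in Kupffer cells as deposited, 49.3% with samples rescaled to the total, 47.7% after quantile normalization, 38.6% after rescaling to the median and 22.0% with the housekeeping genes other than Gusb.

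The values are counts normalized by the authors, with genes under the background of a lane listed at that background. The background was the highest negative control, listed without scaling at 5 to 27 in monocytes against 7 to 14 in Kupffer cells. Values above it had been multiplied by the factor of the lane. On that scale the Kupffer cell backgrounds spanned 11.7 (sample 1) to 30.4 (sample 5). Those of monocytes spanned 5.63 (sample 2) to 15.7 (sample 1). The scaled limit of detection thus reached higher in Kupffer cells, although the ranges overlapped. Between 158730 and 339100 molecules of the tested genes were counted per monocyte sample, and between 80944 and 140029 per Kupffer cell sample, so low genes were counted less precisely in Kupffer cells. A fold change divides the geometric mean of normalized count + 1 in one cell type by that in the other. On the log2 scale, values above 0 mean more in Kupffer cells, and adjusted p-values come from limma with Benjamini-Hochberg adjustment over the 248 genes. Whether the cells of the pooled samples made less of an mRNA per cell, or fewer of the cells made it, cannot be told apart in bulk RNA.

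The labelled cell types were checked against markers. Itgb2 and Tyrobp, a leukocyte integrin chain and a myeloid adaptor, were far above the background in all 12 samples. The 6 macrophage and monocyte markers on the panel, however, had sums of 16680 to 26957 normalized counts over the monocyte samples and of 6226 to 10897 over the Kupffer cell samples, where 4 of the 6 were called lower and 1 higher. Ccr2, a chemokine receptor of blood monocytes, had 866 to 1978 normalized counts in Kupffer cells and 1387 to 1884 in monocytes. The 8 hepatocyte markers summed to 4008 to 13939 in Kupffer cells, while in monocytes 7 of the 8 were at the background in every sample. The 5 T and NK cell markers had sums of 1230 to 1883 in Kupffer cells, against 557 to 969.7 in monocytes. Of these 5, 3 were called higher in Kupffer cells and none lower. Ifng had 263 to 374 normalized counts there, against 20.66 to 32.65 in monocytes, while Cd4, the largest part of the sums, was not called. Flt1, the endothelial marker on the panel, had 52.2 to 151 normalized counts in Kupffer cells and was above the background in 1 of 6 monocyte samples, and no B cell marker was on the panel. Of the neutrophil markers, Cxcr1 was never above the background in Kupffer cells and Cxcr2 had 61.6 to 146 normalized counts there, against 57.2 to 271 in monocytes. Fos, Jun and Myc, which respond early when cells are isolated, had sums of 13764 to 26584 in Kupffer cells, against 5049 to 8310 in monocytes. Fos and Jun were called higher in Kupffer cells, while Myc was not called and had 889 to 1199 normalized counts in monocytes and 561 to 1095 there. The part of these other cells and of the early response in the differences below was not tested.

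The promoter of Il6 is shown because Il6 and Cebpb were both lower in Kupffer cells, and because it holds a match to the letters bound by C/EBP factors. The sequence is that of RefSeq (GRCm38.p6), chr5:30012864-30013163, plus strand, from 250 bases before to 50 bases after the start of the gene. Capitals mark matches to 3 motifs, in the order AP-1 (TGANTCA), C/EBP (TTNNGNAAT) and NF-kB (GGNNTTTCC).
Il6: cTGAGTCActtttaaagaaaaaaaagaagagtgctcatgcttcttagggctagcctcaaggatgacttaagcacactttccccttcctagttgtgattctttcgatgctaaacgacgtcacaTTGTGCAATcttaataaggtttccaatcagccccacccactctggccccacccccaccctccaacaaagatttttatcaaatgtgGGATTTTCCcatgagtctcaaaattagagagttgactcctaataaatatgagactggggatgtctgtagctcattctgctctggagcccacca

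The promoter of Cebpb, the other member that was lower in Kupffer cells, is that of RefSeq (GRCm38.p6), chr2:167688665-167688964, plus strand, with the same span. None of the motifs searched was found in it.
Cebpb: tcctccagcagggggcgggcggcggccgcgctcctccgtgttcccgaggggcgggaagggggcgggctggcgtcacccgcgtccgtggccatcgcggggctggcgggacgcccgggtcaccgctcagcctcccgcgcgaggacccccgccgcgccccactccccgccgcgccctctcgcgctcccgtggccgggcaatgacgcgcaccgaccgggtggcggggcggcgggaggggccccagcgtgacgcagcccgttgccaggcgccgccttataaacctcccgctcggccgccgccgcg

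Of the 6 members, 4 had a promoter in the RefSeq table, which were Il6, Il6ra, Stat3 and Cebpb. Each was searched on both strands for 5 motifs, which besides those above were STAT (TTCNNNGAA) and CRE (TGACGTCA). In the Il6 promoter the C/EBP match lay 128 to 120 bases before the start, the NF-kB match 43 to 35 bases before it and the AP-1 match 249 to 243 bases before it. Of 32851 promoters of this length, 11.5% held the C/EBP letters, 5.82% the NF-kB letters, 7.81% the AP-1 letters, 8.30% the STAT letters and 1.79% the CRE letters. The Stat3 promoter held a C/EBP match on the minus strand of the printed direction, across the start. The Il6ra promoter held none of the 5. These matches describe letters and no binding was measured. Whether Cebpb has a part in the lower Il6 was not tested.

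Of the ligands, Il6 encodes the cytokine that drives the acute phase response. Its normalized count ranged from 149 to 425 in monocytes (median 197), with monocyte samples 4 and 6 highest at 425 and 384. In Kupffer cells it ranged from 38.4 to 105 (median 54.0), with sample 3 alone above 58.7. The groups did not overlap, as in 41.5% of all genes tested, and 15.7% had all monocyte samples on top. The mean was 253 ± 121 in monocytes and 60.5 ± 23.0 in Kupffer cells (SD, n = 6 samples each), which gave a log2 difference of -1.99 (95% interval -2.64 to -1.34, adjusted p = 7.88e-05 from limma). An exact permutation test over the 924 assignments of samples gave a two-sided p of 0.00216. This is the smallest it can give, and it follows from the lack of overlap. Among the 248 genes, Il6 had the 13th lowest fold.

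Few Il6 molecules were counted in Kupffer cells, 21 to 54 per sample, against 132 to 700 in monocytes. Kupffer cell values also lay closer to the background of the lane, once that was multiplied by its factor. Sample 2 had 38.4 against a background of 25.6, sample 5 had 58.7 against 30.4 and sample 3 had 105 against 17.5. The part of background in these values was not tested. The highest Kupffer cell value, 105 in sample 3, came from 54 molecules, with an exact Poisson 95% interval of 79.1 to 137 on the normalized scale. The next, 58.7 in sample 5, came from 27 molecules, with an interval of 38.7 to 85.4. These intervals, which cover counting error only, overlap. The lowest monocyte value, 149 in sample 2, had an interval of 124 to 176, which also overlapped that of Kupffer cell sample 3, so the gap between the groups is within counting error at its narrowest point.

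Il10 encodes the cytokine that restrains macrophage activation. In monocytes its listed values ran from 11.3 to 53.1 (median 22), and in 3 of the 6 samples they were the background itself. The 3 samples above it were sample 2 with 10 counted molecules, sample 4 with 39 and sample 6 with 96. In Kupffer cells the listed values ran from 7 to 31.9 (median 14), and 2 of 6 samples were above the background, sample 1 with 11 molecules and sample 4 with 15. The groups overlapped. The fitted log2 fold change of -0.73 (95% interval -1.51 to 0.05, adjusted p = 0.0946) was not called and rests largely on background values, which the authors did not multiply by the factor of the lane. With these set to whichever was higher, the background as listed or multiplied, it was -0.10 (adjusted p = 0.759). This raised the background values of Kupffer cells only. Those of monocyte samples 1, 3 and 5 stayed at 22, 21 and 22, where multiplied values would be 15.7, 14.1 and 13.0. A fit with multiplied values in both cell types was not run, so the direction of the difference is not settled. Il10 was, on the other hand, called lower in Kupffer cells after rescaling to the median gene level (-0.98, adjusted p = 0.0253), with the housekeeping genes other than Gusb (-1.35, adjusted p = 0.00605), without monocyte sample 2 (-0.93, adjusted p = 0.0267) and without Kupffer cell sample 4 (-0.97, adjusted p = 0.0215). The call thus depended on the scaling, on single samples and on the treatment of background values. Where both cytokines were above the background, in 5 samples, the ratio of Il6 to Il10 was 13.2, 17.9 and 7.22 in monocyte samples 2, 4 and 6 and 3.82 and 1.67 in Kupffer cell samples 1 and 4. These samples were selected by Il10 being above the background, and the Kupffer cell ratios rest on 11 and 15 Il10 molecules. The ratios therefore do not compare the cell types.

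**Figure D1:**
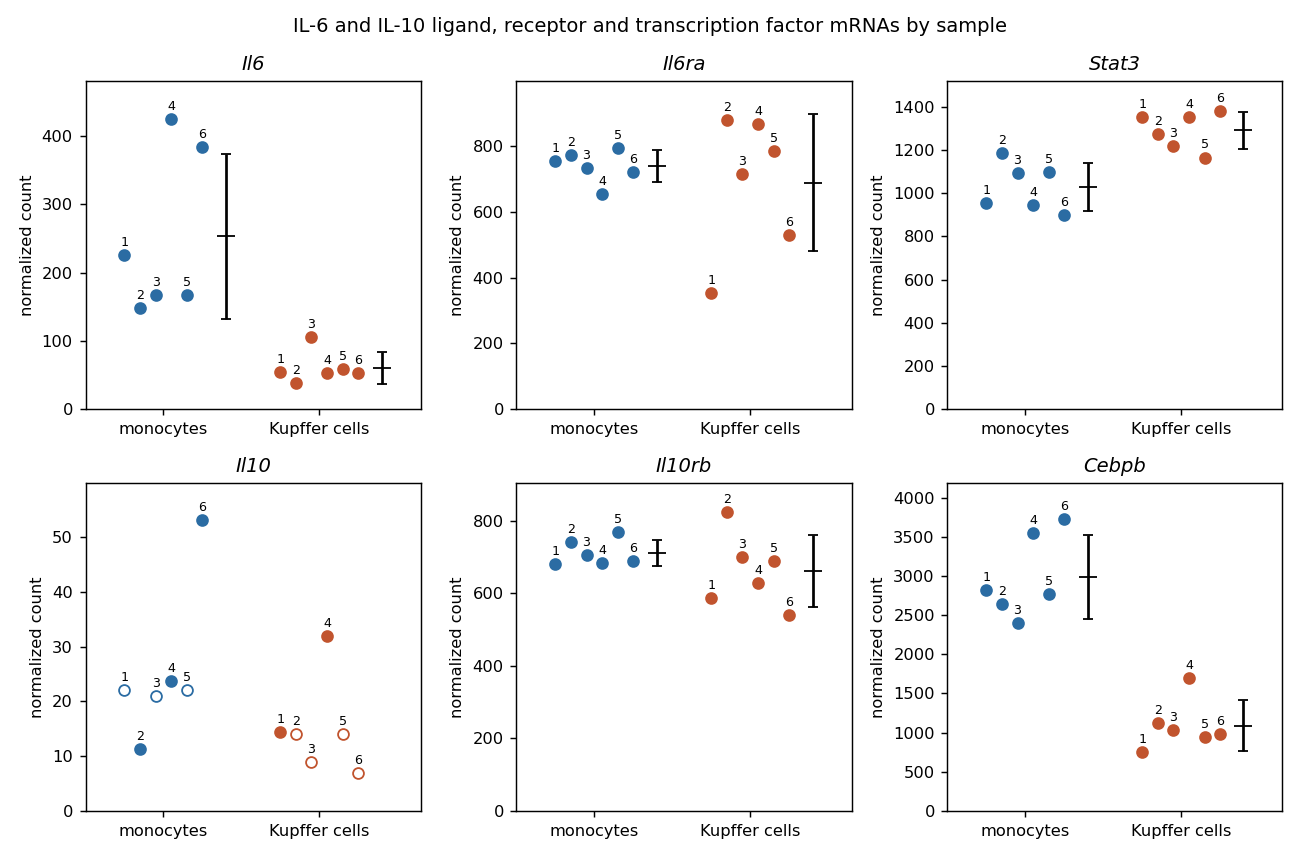
Normalized count (linear axis from 0) of each member in the 6 monocyte and 6 Kupffer cell samples, numbered by sample; open points are values listed at the background, and the bar beside the points is the mean ± SD (not drawn for Il10). In Il6 and Cebpb all monocyte points lie above all Kupffer cell points, while Il6ra spreads from 352 to 881 in Kupffer cells around a narrow monocyte range.

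Of the receptor chains, Il6ra encodes the IL-6 binding chain, which hepatocytes and several leukocytes carry. It had 655 to 795 normalized counts in monocytes (median 745) and 352 to 881 in Kupffer cells (median 749.95). The Kupffer cell samples lay on both sides of the monocyte range, samples 1 and 6 below it at 352 and 531, and samples 2 and 4 above it at 881 and 869. The mean was 739 ± 48.9 in monocytes and 689 ± 209 in Kupffer cells (SD, n = 6 samples each), and the log2 fold change was -0.17 (95% interval -0.62 to 0.28, adjusted p = 0.482). The SD of its log2 values was 0.10 between monocyte samples and 0.51 between Kupffer cell samples, where the median over genes above the background in all samples was 0.22 and 0.35. Without Kupffer cell sample 1 the log2 fold change was 0.01 (adjusted p = 0.941).

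Kupffer cell samples 1 and 6, the lowest in Il6ra, were also apart in other measures. Their macrophage and monocyte markers summed to 6226 and 6352, against 8568 to 10897 in the other samples, and their hepatocyte markers to 4008 and 6800, against 7768 to 13939. Their Gapdh, a housekeeping gene used for scaling, had 4159 and 4084 normalized counts, against 2159 to 2741. The part of these in the spread of Il6ra was not tested.

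Il10rb encodes the receptor chain that IL-10 shares with IL-22 and related cytokines. It had 681 to 769 normalized counts in monocytes (median 698) and 541 to 824 in Kupffer cells (median 659). The monocyte range lay within that of Kupffer cells, in which sample 2 was highest and sample 6 lowest. The mean was 712 ± 35.5 in monocytes and 662 ± 99.7 in Kupffer cells (SD, n = 6 samples each), with a log2 fold change of -0.12 (95% interval -0.38 to 0.15, adjusted p = 0.413). The ratio of Il6ra to Il10rb within a sample, which the scaling of the sample cannot change, ran from 0.957 to 1.11 over monocytes but from 0.599 to 1.38 over Kupffer cells. Probes differ in efficiency, so such a ratio is compared only between samples.

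Of the transcription factors, Cebpb had 2396 to 3732 normalized counts in monocytes (median 2794), with samples 4 and 6 highest at 3556 and 3732, and 749 to 1698 in Kupffer cells (median 1007), with sample 4 highest. The groups did not overlap, which sets the exact permutation p at its smallest. Of all genes tested, 15.7% had all monocyte samples on top. The mean was 2985 ± 534 in monocytes and 1087 ± 323 in Kupffer cells (SD, n = 6 samples each), which gave a log2 difference of -1.48 (95% interval -1.89 to -1.07, adjusted p = 1.51e-05; two-sided exact permutation p = 0.00216). It was well counted, from at least 435 molecules in each Kupffer cell sample and at least 2345 in each monocyte sample, and had the 24th lowest fold of the 248 genes.

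Stat3, the factor through which both cytokines signal, was the least variable member between Kupffer cell samples. It had 899 to 1184 normalized counts in monocytes (median 1023) and 1165 to 1382 in Kupffer cells (median 1312), and the groups overlapped only through monocyte sample 2 at 1184 and Kupffer cell sample 5 at 1165. The mean was 1029 ± 112 in monocytes and 1290.2 ± 86.7 in Kupffer cells (SD, n = 6 samples each), which gave a log2 difference of 0.33 (95% interval 0.08 to 0.58, adjusted p = 0.0246; two-sided exact permutation p = 0.00433). The call was lost when samples were rescaled to the total of all genes (log2 fold change 0.22, adjusted p = 0.179) or to their median (0.07, adjusted p = 0.628), after quantile normalization (0.26, adjusted p = 0.0604) and without any 1 of monocyte samples 1, 4 and 6 (0.31, 0.31 and 0.29, adjusted p of 0.0571, 0.0532 and 0.0553). With the housekeeping genes other than Gusb it turned to -0.33 (adjusted p = 0.0531).

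The housekeeping genes themselves differed between the cell types on the deposited scale, Gusb with 764 to 1178 normalized counts in monocytes against 244 to 409 in Kupffer cells, and Gapdh with 1631 to 1767 against 2159 to 4159. Small differences such as that of Stat3 therefore moved with the genes chosen for scaling. Il6 and Cebpb stayed lower in Kupffer cells under each of the 6 scalings, with log2 fold changes of -2.64 to -1.89 and -2.14 to -1.35. Il10rb was called lower in Kupffer cells after quantile normalization (-0.34), after rescaling to the median gene level (-0.38) and with the housekeeping genes other than Gusb (-0.77), and Il6ra (-0.43 and -0.82) and Il10 (-0.98 and -1.35) under the last 2.

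**Figure D2:**
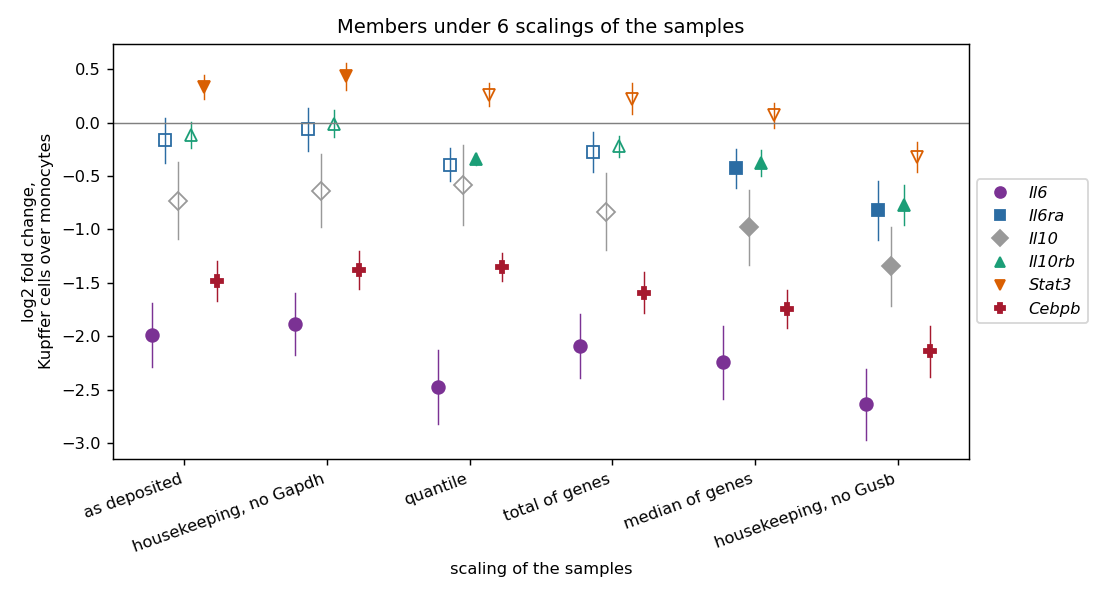
Log2 fold change (Kupffer cells over monocytes) of the 6 members under 6 ways of scaling the samples; vertical lines are 1 standard error from limma and filled symbols have an adjusted p under 0.05. Il6 and Cebpb are filled and below 0 throughout, while Stat3 runs from 0.43 to -0.33.

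Ratios within a sample do not depend on scaling. The ratio of Stat3 to Cebpb ran from 0.241 to 0.456 over the monocyte samples, against 0.796 to 1.81 over the Kupffer cell samples, with no overlap, and Kupffer cell sample 4 was the lowest of its group. Further ratios were chosen after the values were seen. Stat3 to Il10rb was 1.30 to 1.60 in monocytes (median 1.42) and 1.55 to 2.55 in Kupffer cells (median 1.94), where only Kupffer cell sample 2 reached into the monocyte range. Il6 to Cebpb overlapped, at 0.0563 to 0.120 over monocytes against 0.0313 to 0.102 over Kupffer cells. None of these ratios was tested.

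Since macrophage and monocyte markers were lower in the Kupffer cell samples, Il6 and Cebpb were also set against Tyrobp of the same sample. The ratio of Il6 to Tyrobp was 0.0224 to 0.0557 in monocytes (median 0.0306) and 0.00912 to 0.0262 in Kupffer cells (median 0.0182), with Kupffer cell sample 3 above monocyte samples 2 and 5. The ratio of Cebpb to Tyrobp was 0.395 to 0.466 in monocytes (median 0.422) and 0.256 to 0.420 in Kupffer cells (median 0.275), with Kupffer cell sample 4 inside the monocyte range. Against Tyrobp the mean log2 difference, Kupffer cells minus monocytes, was -1.01 for Il6 and -0.49 for Cebpb, smaller in size than the -1.99 and -1.48 of the fit. These values depend on the marker, since the 6 markers themselves moved differently. Against Ccr2 the differences were -1.85 and -1.33, and against Cd163 they were -3.12 and -2.60. Against Itgb2 they were -0.28 for Il6 and 0.24 for Cebpb, against C1qb -0.19 and 0.33, and against C1qa 0.17 and 0.69. Cebpb was thus lower in Kupffer cells relative to 3 of the 6 markers and Il6 relative to 5.

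**Figure D3:**
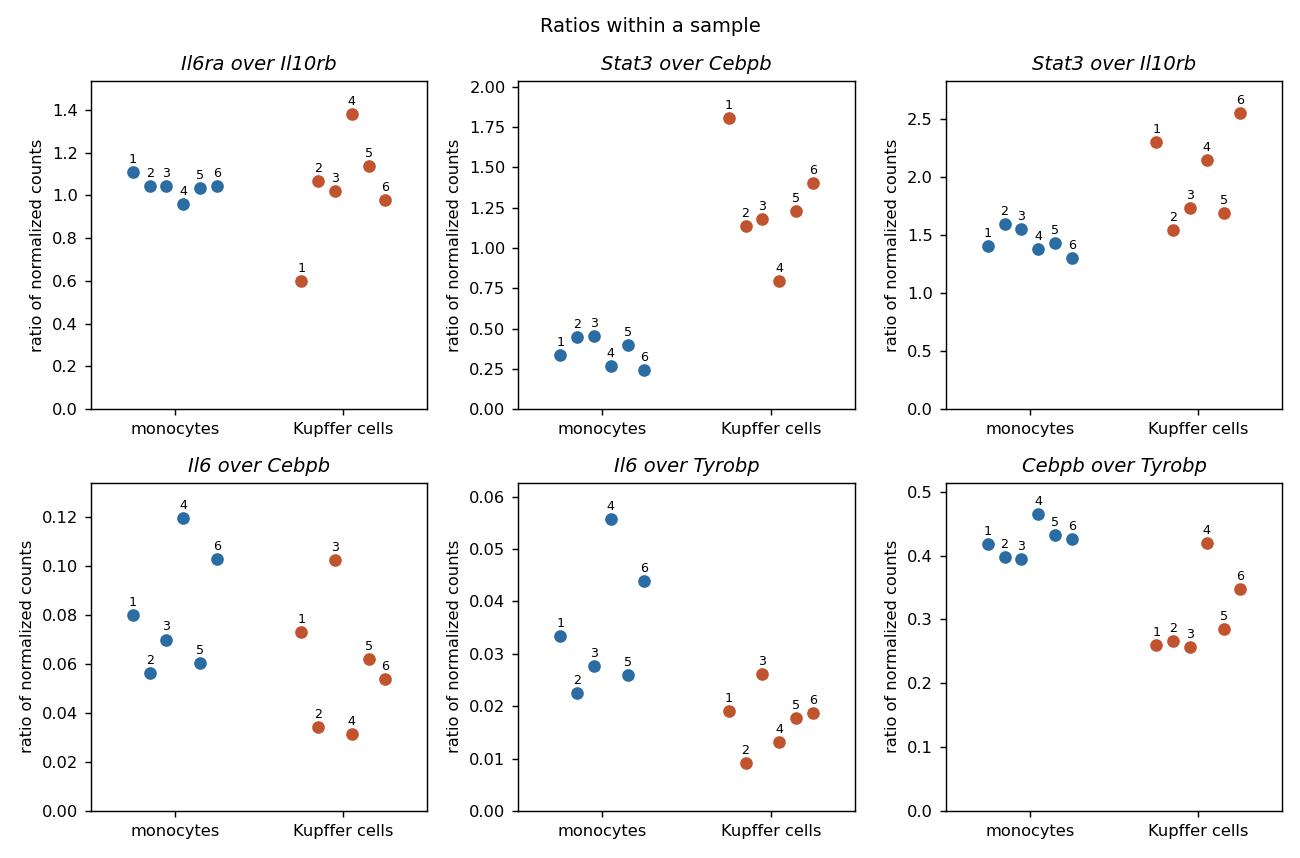
Ratio of normalized counts (linear axes from 0) of the named pairs within each of the 6 monocyte and 6 Kupffer cell samples, numbered by sample. The groups are apart in Stat3 over Cebpb (0.241 to 0.456 against 0.796 to 1.81) and overlap in the other 5 pairs, by Kupffer cell sample 3 in Il6 over Tyrobp and by sample 4 in Cebpb over Tyrobp.

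Between the monocyte samples, numbers 4 and 6 were highest in both Il6 and Cebpb and lowest in Stat3, at 944 and 899 normalized counts. In the same samples the macrophage and monocyte markers summed to 24496 and 26957, against 16680 to 20401 in the others, and the T and NK cell markers to 683 and 557, against 807 to 969.7. Kupffer cell sample 4, highest in Cebpb and above the background in Il10, had the lowest sum of Fos, Jun and Myc, 13764. Whether these measures have a part in the spread was not tested.

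The genes whose pattern over the 12 samples was most like that of each member were found among the 159 others above the background in all samples, by the root mean square difference of log2 values centred on the mean of the cell type means. For Il6 they were Itgb2 (0.41) and C3ar1 (0.45), an integrin chain and a complement receptor, with log2 fold changes of -1.73 and -2.40. Itgb2 is also among the macrophage and monocyte markers. For Cebpb they were C4a (0.24), a complement component, and Tlr2 (0.28), a toll-like receptor, with log2 fold changes of -1.61 and -1.84. These 4 genes were called lower in Kupffer cells, without overlap between the cell types. The difference between cell types was part of the likeness, so whether genes chosen this way were called follows largely from the choice. For Il6ra they were Ccr2 (0.19) and the stress kinase gene Mapk14 (0.22), and Ccr2, like Il6ra, was lowest in Kupffer cell samples 1 and 6. For Il10rb they were Rac1 (0.11) and Gnas (0.11), and for Stat3 Tollip (0.14) and Gnb1 (0.15), none of them called. The median difference over the 159 genes was 1.25 for Il6, 0.94 for Cebpb, 0.53 for Il6ra, 0.45 for Il10rb and 0.46 for Stat3. All points share the scaling of the lane.

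Other genes of the pathways were taken from lists. The signalling list held 12 genes on the panel, from IL-6 and IL-10 family cytokines to STAT factors and the Ras and MAP kinase arm below the IL-6 receptor. Of these, 6 were called higher in Kupffer cells, none lower and 6 neither way, so that 6 of 12 were called where 56.5% of all genes were. The median log2 fold change of the list was 0.30, against 0.05 over all genes.
Stat2, a STAT factor of the interferon response, averaged 223 ± 25.4 normalized counts over monocytes against 636 ± 145 over Kupffer cells (SD, n = 6 samples each), a log2 difference of 1.49 (adjusted p = 2.13e-06 from limma). Every Kupffer cell sample lay above every monocyte sample, as in 25.8% of all genes. Shc1, an adaptor, was higher by 0.80 on the log2 scale (adjusted p = 3.24e-05), again without overlap, and the kinase gene Mapk3 by 0.42 (adjusted p = 0.0253). With the housekeeping genes other than Gusb, Shc1 was at 0.14 (adjusted p = 0.461) and Mapk3 at -0.23 (adjusted p = 0.161). Shc1 stayed called under the other scalings (0.42 to 0.90), whereas Mapk3 was also not called after rescaling to the total (0.32) or the median (0.16), after quantile normalization (0.23), and without monocyte sample 4 or 6 or Kupffer cell sample 6 (adjusted p of 0.0571, 0.0513 and 0.0536).

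The adaptor gene Grb2 (log2 fold change -0.34, adjusted p = 0.0799) and the kinase gene Map2k1 (0.25, adjusted p = 0.0818) were not called. Hras, listed under its older symbol Hras1, and Il22 were above the background in 1 of 6 monocyte samples each and in 3 and 4 of 6 Kupffer cell samples. Il11 and Il22ra2, the genes of an IL-6 family cytokine and of a soluble IL-22 receptor, were at the background in all 12 samples, where no difference could be detected. The direction of the list moved with the scaling: after rescaling to the median gene level, 4 were called higher and 4 lower, and with the housekeeping genes other than Gusb 1 was higher and 5 lower. Stat2 was called higher under every scaling tried, with log2 fold changes of 0.83 to 1.59.

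Of 17 genes that IL-10 is known to restrain in macrophages, 6 were called higher in Kupffer cells, 4 lower and 7 neither way, close to the shares over all genes (58.8% called against 56.5%). Higher were the chemokine genes Ccl4 (6.01-fold), Cxcl10 (4.71-fold), Ccl3 (4.09-fold) and Ccl5 (3.23-fold), and also Tnf and Nos2. Lower were the neutrophil-attracting Cxcl2 (28.0-fold) and Cxcl1 (25.9-fold), the costimulatory ligand gene Cd86 (2.17-fold) and Il12a (1.97-fold). Il6 itself, which IL-10 also restrains, was kept out of this count. After rescaling to the median gene level 6 were higher and 9 lower, and after quantile normalization 6 and 7, and with the housekeeping genes other than Gusb 5 and 10.

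Of 16 acute phase genes, 6 were on the panel, and 5 of them were called higher and 1 lower in Kupffer cells, where 35.1% of all genes were called higher and 21.4% lower. C3, the central complement component, was 46.6-fold higher, and Cfb, complement factor B, was also higher. Crp and C9 were never above the background in monocytes and Mbl2 only in 1 of 6 samples, and these 3 genes also belong to the hepatocyte markers above. C4a was 3.05-fold lower. Il6 and Cebpb, known to act in this response, were lower in the same samples in which 5 of these genes were higher. The hepatocyte markers summed to 4008 to 13939 in those samples. The part of hepatocyte RNA in the 5 genes was not tested, so these values do not show the response of Kupffer cells themselves.

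**Figure D4:**
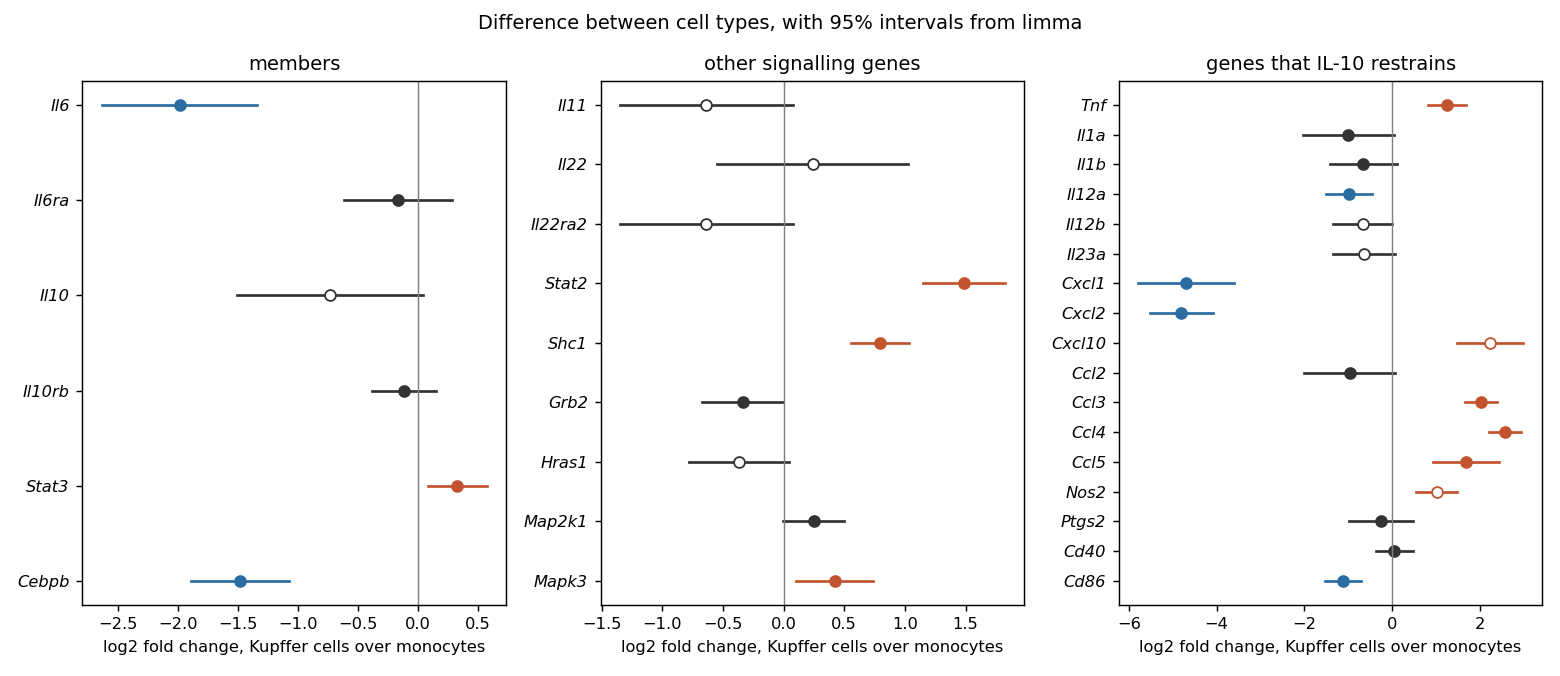
Log2 fold change (Kupffer cells over monocytes) with the 95% interval from limma for the members, 9 of the 12 other signalling genes and the 17 genes that IL-10 restrains; blue is called lower, orange called higher and black not called, and open points had at least 1 sample at the background. Il6 and Cebpb are the members with intervals below 0, and Il11, Il22ra2 and Il23a show background values only. The 3 axes differ in range.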

How the data were processed

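Per the labels, 100 ng of total RNA per sample was hybridised with the nCounter Mouse Inflammation V2 panel. For each gene and sample, the authors deposited a signal, namely the count normalized in nSolver Analysis Software 4.0 by positive controls and housekeeping genes (Cltc, Gapdh, Gusb and Pgk1 were used here, Hprt and Tubb5 were not analysed here), with a background threshold at the highest of the 8 negative controls. Genes below it were listed at it, not multiplied by the factor of the lane. Counted molecules were recovered as value over factor, the factor being the largest step that made every unfloored value a whole multiple within 0.02. No count model was used, since background values could not be turned back.

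The 12 samples were grouped by title and compared with limma 3.58.1 (R 4.3.3) after adding 1 and taking log2 (two-sided, Benjamini-Hochberg over 248 genes, threshold 0.05), after a test of the steps on simulated data. An exact permutation test over the 924 assignments was the other test. Python 3.11.15 served for tables, recovered counts and figures. The members, lists and named genes (the 6 members, the 2 most similar genes each, the signalling list, and up to 4 called genes per direction of the other lists) were chosen with earlier results of these data known. Nothing in the labels says more about replicates than that each is a pool, and p-values measure the spread between pools. Alternatives concerned the pseudocount, a filter, the scaling, background values, a replicate block, the prior variance and each sample left out. Values of single genes are not reported here for 3 genes of the signalling list, which stay in its counts. The housekeeping scaling without Gusb was chosen after seeing the data.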

Additional observations from a re-analysis of the deposited data

Results flagged for a closer look

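3 of the 12 groups of 6 values (6 members in 2 cell types) held a sample far from the others by Dixon's test, which chance flags in about 1 in 20 groups. Il6 in Kupffer cell sample 3 was 105 normalized counts, from 54 counted molecules, where the next was 58.7. Il10 in monocyte sample 6 was 53.1 normalized counts, from 96 molecules, and Il10 in Kupffer cell sample 4 was 31.9, from 15 molecules. In both Il10 groups at least 3 of the other values were the listed background, so the rate of 1 in 20 does not apply to them. In Kupffer cell sample 4 the background multiplied by the factor of the lane would be 25.5.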

How the results depend on the processing

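Il6 and Cebpb kept their direction and their call under all 24 alternatives, with adjusted p of at most 0.0012 and 0.000188 from limma. Leaving out each sample in turn gave log2 fold changes of -2.16 to -1.81 for Il6, -1.62 to -1.39 for Cebpb, -0.25 to 0.012 for Il6ra (above 0 without Kupffer cell sample 1), -0.97 to -0.50 for Il10, -0.18 to -0.06 for Il10rb and 0.29 to 0.37 for Stat3. Il10 was called without monocyte sample 2 (-0.93, adjusted p = 0.0267) and without Kupffer cell sample 4 (-0.97, adjusted p = 0.0215), within 0.00605 to 0.759 over its alternatives. Rescaling to the median of all genes, which moved the median gene by -0.26, gave -0.43 for Il6ra, -0.98 for Il10, -0.38 for Il10rb (all called) and 0.070 for Stat3 (not called). The housekeeping genes without Gusb moved the median gene by -0.64 and gave -0.82, -1.35 and -0.77 for the same 3 (all called) and -0.33 for Stat3. Quantile normalization gave -0.34 for Il10rb (called) and 0.26 for Stat3 (not called), and the total of all genes 0.22 for Stat3 (not called). Stat3 minus the median gene stayed between 0.27 and 0.29 in these scalings. Except for quantile normalization, this follows from the rescaling, which shifts all genes of a sample alike, so it is no result about Stat3. Stat3 minus the median gene was 0.06 with the filter on low values and 0.14 with background values at the higher of listed and multiplied. There the median gene was at 0.27 and 0.19, so this comparison depends on how genes near the background are treated. The adjusted p of Stat3 ran from 0.00938 to 0.628 over its alternatives. The cause of this dependence on the processing was not tested. Sample numbers in the titles are shared by the cell types, but deviations of same-numbered samples correlated at -0.23 to 0.40 across 160 genes and only 2 of the 6 monocyte samples correlated best with their own number. With this replicate block, 132 genes were called against 140 without it, and Stat3 had a log2 fold change of 0.33 with an adjusted p of 0.0576; no other member changed its call. Under the alternatives the number of genes called over the panel and in the 3 lists stayed within 1.5 times, but 38.6% of the calls were higher in Kupffer cells with rescaling to the median and 22.0% with the housekeeping genes without Gusb, against 62.1%. Il10 could not be assessed with the filter on low values, which removed it. The listed background limits Il10, and the number of counted molecules and the nearness of the background limit Il6 in Kupffer cells.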
